A study of Rattus norvegicus with 24 samples.

Results

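The 12 saline-treated rats of the series were ranked by the level of Tnnc1, which encodes the troponin C of slow-twitch muscle fibres and of the heart, and the upper 6 were set against the lower 6. These are 12 of the 24 rats whose medial gastrocnemius was sequenced. The other 12 rats received monocrotaline and took no part in the ranking. Tnnc1 itself is given only as the ranking measure, and all other values are for the remaining 10850 genes of the table. The members were thus chosen by a measured value of the same libraries, the CPM of Tnnc1, so the differences between both sets are a description without a test.

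The study compared control and cardiac cachexia (CC) rats, each sedentary or trained, with 6 rats per group and 1 library per rat. The groups are called Sed and Ex for controls, and CC-Sed and CC-Ex for cachectic rats. All were male Wistar rats without a genetic modification, and their age is not given in the sources used here. Sed and Ex rats were injected intraperitoneally with saline, the vehicle. CC-Sed and CC-Ex rats received an injection of monocrotaline by the same route, a plant alkaloid that damages the lung vessels and overloads the right ventricle. Ex and CC-Ex rats ran on a treadmill on several days of each week after the injection, and Sed and CC-Sed rats did not train. RNA came from 30 mg of frozen muscle of the left leg of each rat, so that a library reports one piece of a muscle in which fibre types are unevenly placed. As in any bulk sample, fewer fibres of a type and less RNA per fibre cannot be told apart.

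Skeletal muscle fibres differ in the isoforms of the contractile proteins they make. Slow fibres carry slow troponins, slow myosin light and heavy chains and the slow calcium pump, and they burn fatty acids in many mitochondria. Fast fibres carry the fast isoforms, store and release calcium at a higher rate and rely more on glycogen and glycolysis. The rodent gastrocnemius is mostly fast, with slow fibres gathered in its deep part.

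Levels are given as CPM, counts scaled to a common library size with TMM factors. Total counts of the saline rats lay between 39684162 and 48865145, with medians of 42724311.5 in the upper and 42106959 in the lower set, so depth was alike in both. The 10 genes with the highest counts held 30.6% to 34.4% of the counts in the upper and 29.05% to 33.02% in the lower set. The library numbers in the labels lay between 9 and 24 (median 18) in the upper and between 7 and 22 (median 14) in the lower set. Counts of any 2 libraries of a group differed far beyond sampling noise (smallest chi-square/df 43.8), so that none was a repeat of another.

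Tnnc1 covered a range of more than 2 orders of magnitude in saline rats. The upper set held Ex replicate 4 at 927.6 CPM, Ex replicate 6 at 388.0, Ex replicate 3 at 322.9, Sed replicate 1 at 311.3, Sed replicate 4 at 290.4 and Sed replicate 6 at 246.8. The lower set held Ex replicate 2 at 227.3 CPM, Ex replicate 5 at 142.1, Sed replicate 2 at 29.7, Sed replicate 3 at 7.31, Sed replicate 5 at 6.62 and Ex replicate 1 at 3.74. Each set thus held 3 Sed and 3 Ex rats. The rats just inside and just outside the division were close, at 246.8 and 227.3 CPM, and the widest gap on the log scale lay lower down, between Ex replicate 5 and Sed replicate 2. The same 6 rats formed the upper set with upper-quartile scaling, with median-of-ratios scaling and when the rats were ranked by Tnni1, Tpm3 and Myl3 together.

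**Figure D1:**
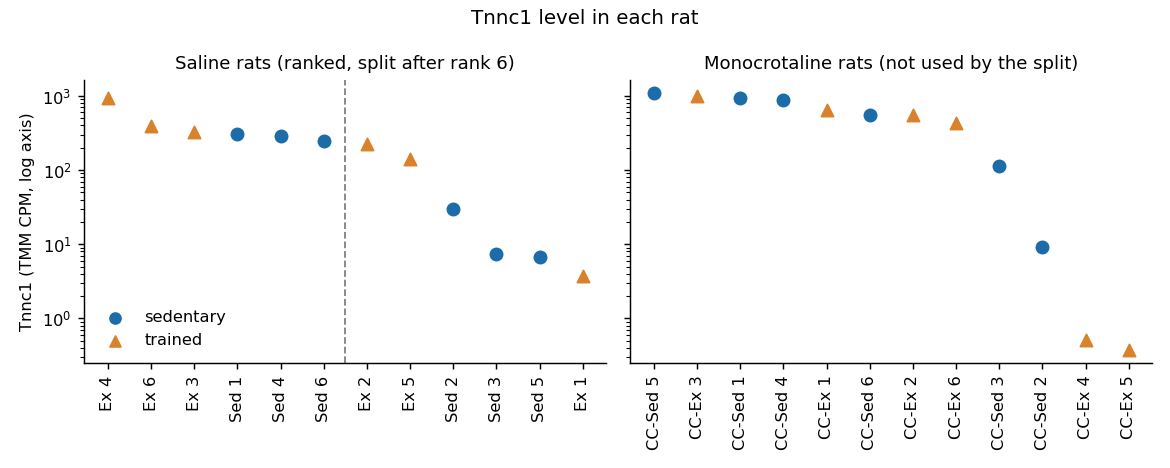
Tnnc1 level in each rat, as TMM CPM on a log axis, with sedentary rats as circles and trained rats as triangles. The dashed line marks the division of the saline rats between 246.8 and 227.3 CPM, and the monocrotaline rats on the right span 0.375 to 1111 CPM.

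The promoters of genes from both ends of the split are shown first, since these genes carry the contrast between slow and fast fibres. The 250 bases before the transcription start of Tnni1 and Myl3, slow sarcomere genes with the widest differences without overlap, and of Myh4, the fast sarcomere gene without overlap, were taken from RefSeq on build GRCr8, all on the plus strand. The windows were chr13:49781279-49781528 for Tnni1, chr8:119616844-119617093 for Myl3 and chr10:52421898-52422147 for Myh4. Capitals mark the E-box (CANNTG, bound by factors of the MyoD family) and the MCAT element (CATTCC or its reverse complement GGAATG, bound by TEAD factors).
Tnni1: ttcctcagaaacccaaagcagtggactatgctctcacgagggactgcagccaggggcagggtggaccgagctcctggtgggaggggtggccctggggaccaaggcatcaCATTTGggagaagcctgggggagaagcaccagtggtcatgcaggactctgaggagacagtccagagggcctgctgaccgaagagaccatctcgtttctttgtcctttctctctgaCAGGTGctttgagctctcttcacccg
Myl3: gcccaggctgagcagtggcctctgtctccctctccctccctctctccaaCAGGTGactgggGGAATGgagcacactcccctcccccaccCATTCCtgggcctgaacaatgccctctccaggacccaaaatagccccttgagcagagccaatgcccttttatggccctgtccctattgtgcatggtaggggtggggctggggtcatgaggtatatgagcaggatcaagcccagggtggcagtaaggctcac
Myh4: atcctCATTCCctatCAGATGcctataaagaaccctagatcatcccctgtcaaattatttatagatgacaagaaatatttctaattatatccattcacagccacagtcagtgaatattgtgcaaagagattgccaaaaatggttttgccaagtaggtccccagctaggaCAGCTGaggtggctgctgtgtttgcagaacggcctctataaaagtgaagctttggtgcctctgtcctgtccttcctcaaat
The Tnni1 window held 2 E-boxes, the Myl3 window 1 E-box and 2 MCAT elements, and the Myh4 window 2 E-boxes and 1 MCAT element, none of which overlapped. Searched on both strands in all 27457 promoter windows of this length, the E-box was found in 65.2%, MCAT in 11.8% and the half-site of ERR receptors (AAGGTCA) in 3.77%. Of the 62 genes that were higher in the upper set without overlap between the sets, 56 had a window, of which 38 held an E-box (67.9%), 7 MCAT (12.5%) and 2 the ERR half-site (3.57%). A MEF2 site was found in 2 of the 56 windows (3.57%), beside 157 of all 27457 windows (0.572%). The difference between these shares was not tested. Of the 65 genes that were lower without overlap, 54 had a window, of which 27 held an E-box (50%), 6 MCAT (11.1%) and none the ERR half-site or a MEF2 site. Of 5 slow sarcomere genes with a window, 5 held an E-box, 1 MCAT, 2 the ERR half-site and 1 a MEF2 site. Of 10 fast sarcomere genes with a window, 8 held an E-box, 3 MCAT and none the ERR half-site or a MEF2 site. These matches are letters in a short window and not sites of binding.

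The slow sarcomere genes set the upper and lower rats furthest apart. Of the 11 genes listed, 6 were in the table, and the others, such as Myh7, Myl2 and Tnnt1, were not analysed here. The deposited table keeps no gene with a count below 10 in any rat, and a slow gene had to reach that count also in the rats with the least Tnnc1. The median difference of these 6 genes, as the mean log2 CPM of the upper set minus that of the lower set, was 3.25, and all 6 had the higher mean in the upper set. Over all 10850 genes the median difference was 0.013, and 5751 had the higher mean. Without overlap, 62 of all genes (0.571%) were higher and 65 (0.599%) lower, and the counts of each list below stand beside these shares.

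Tnni1, the inhibitory subunit of slow troponin, was at 1268 CPM in Ex replicate 4, 450.5 in Ex replicate 6, 469.3 in Ex replicate 3, 449.6 in Sed replicate 1, 388.6 in Sed replicate 4 and 351.2 in Sed replicate 6. In the lower set it was at 305.9 CPM in Ex replicate 2, 213.6 in Ex replicate 5, 40.4 in Sed replicate 2, 7.66 in Sed replicate 3, 24.1 in Sed replicate 5 and 5.62 in Ex replicate 1. The sets did not overlap, and Ex replicate 2 and Ex replicate 5 lay much closer to the upper set than the other 4 rats did. Tnni1 differed by 3.75 on the log2 scale, with a standard deviation among rats of 0.67 in the upper and 2.39 in the lower set (n = 6 each). The lower set was the more variable, and its rats lay on both sides of the gap in Tnnc1.

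Myl3, the slow and ventricular essential light chain of myosin, ranged from 737.2 to 2623 CPM (median 882.7) in the upper set and from 13.1 to 657.4 CPM (median 125.3) in the lower set. Myoz2, a Z-disc protein that binds calcineurin and is typical of slow fibres, ranged from 229.5 to 508.6 CPM (median 273.9) in the upper and from 9.09 to 166.7 CPM (median 28.96) in the lower set. Neither gene overlapped between the sets, with differences of 3.25 and 3.24. Tpm3, whose gene gives the slow tropomyosin, differed by 3.44 but overlapped, with 301.3 to 1620 CPM in the upper and 13.0 to 392.9 CPM in the lower set. Sed replicate 6 was the upper rat at 301.3 CPM and Ex replicate 2 the lower rat at 392.9 CPM, which are the rats on either side of the division. Myh7b, a myosin heavy chain of slow-type muscle, and Csrp3, a Z-disc protein, overlapped as well, with differences of 2.59 and 2.31.

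**Figure D2:**
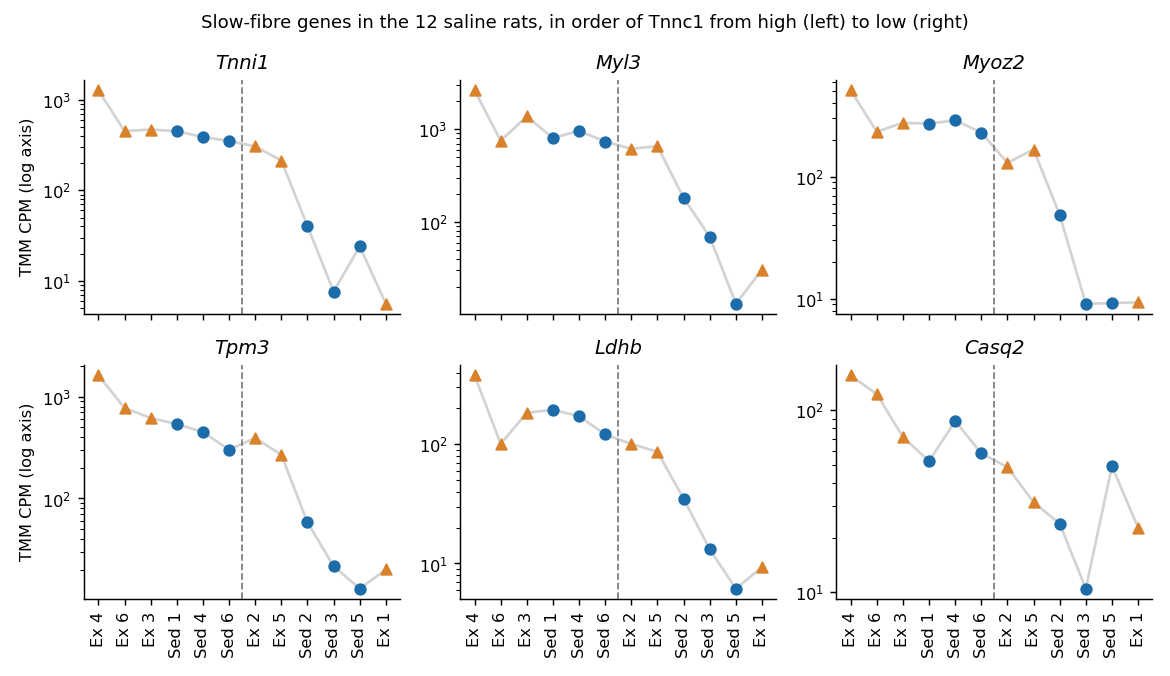
CPM of 6 genes in each saline rat on log axes, in order of Tnnc1 from left to right, with sedentary rats as circles, trained rats as triangles and the division as a dashed line. The 4 rats lowest in Tnnc1 lie below all others for Tnni1, Myl3, Myoz2, Tpm3 and Ldhb, whereas Sed replicate 5, at 49.4 CPM of Casq2, lies above the other lower rats.

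The calcium-handling genes of slow fibres were higher in the upper set by a smaller amount. Casq2, the calsequestrin of slow and cardiac muscle that holds calcium in the sarcoplasmic reticulum, ranged from 52.6 to 155.8 CPM (median 79.4) in the upper and from 10.5 to 49.4 CPM (median 27.6) in the lower set, without overlap and with a difference of 1.62. Atp2a2, the slow calcium pump SERCA2, ranged from 1382 to 4268 CPM and from 713.1 to 1627 CPM, and differed by 1.03 with overlap.

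Fast sarcomere genes went the other way by a much smaller amount. Of 13 listed genes, 11 were measured, with a median difference of -0.22 (-0.14 without Ex replicate 4), and 10 had the lower mean in the upper set. Myh4, the heavy chain of the fastest type IIb fibres, was at 46679 to 87915 CPM (median 79145) in the upper and 88663 to 118121 CPM (median 96259) in the lower set. It was the only gene of the list that did not overlap, with a difference of -0.47. Ex replicate 4, which had the most Tnnc1, had the lowest Myh4 of the saline rats. Actn3, the fast alpha-actinin of the Z-disc, and Mybpc2, the fast myosin-binding protein C, differed by -0.58 and -0.56 with overlap.

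The exception was Myh2, the heavy chain of type IIa fibres, which are fast but oxidative. It ranged from 2811 to 10381 CPM (median 6434) in the upper and from 1077 to 4470 CPM (median 2120) in the lower set, with a difference of 1.58. Only Ex replicate 6, at 2811 CPM, lay within the range of the lower set. Myosin heavy chain genes resemble each other in sequence, and the assignment of reads among Myh2, Myh3 and Myh4 is uncertain to that extent.

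All 5 fast-isoform calcium genes had the lower mean in the upper set, with a median difference of -0.30 and none without overlap. Pvalb, which encodes the calcium buffer parvalbumin, differed by -0.58, and Ryr1, the calcium release channel, by -0.30. Of 18 measured genes of glycolysis and glycogen, 17 had the lower mean, with a median of -0.20 and again none without overlap. Phka1, a subunit of phosphorylase kinase, differed by -0.47 and Pygm, the muscle glycogen phosphorylase, by -0.34. With the highest 8 rats set against the lowest 4, a division at the widest gap that was added after seeing the data, 14 of the 18 had the lower mean. Gys1, the muscle glycogen synthase, had the higher mean at 0.17.

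Oxidative genes had higher means in the upper set as a group, again mostly with overlap. Of 10 measured genes known to be high in slow or oxidative fibres, 10 had the higher mean (median 0.85). Ldhb, Hspb7 and Cox6a1, 3 of the 10, did not overlap, beside 0.571% of all genes. Ldhb, the lactate dehydrogenase subunit of oxidative tissue, ranged from 101.0 to 378.6 CPM (median 177.8) in the upper and from 6.15 to 100.5 CPM (median 24.0) in the lower set, with a difference of 2.82. Its sets met almost at the division, where Ex replicate 6 was at 101.0 CPM and Ex replicate 2 at 100.5 CPM. Hspb7, a small heat shock protein of heart and muscle, ranged from 530.7 to 1002 CPM and from 71.4 to 377.1 CPM, with a difference of 1.95. Fabp3, the fatty acid carrier of heart and slow muscle, differed by 1.73, and Mb, the oxygen store myoglobin, by 0.90, both with overlap.

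All 25 measured genes of fatty acid uptake and oxidation had the higher mean in the upper set, with a median difference of 0.52 and a range of 0.28 to 1.35, although none was free of overlap. Lpl, the lipase that frees fatty acids at the vessel wall, had the widest difference, at 180.9 to 574.8 CPM (median 348.0) in the upper and 73.7 to 229.5 CPM (median 117.7) in the lower set. Acadl, a dehydrogenase of beta-oxidation, differed by 0.65, Cpt2, the carnitine transferase of the inner membrane, by 0.56 and Etfb, which hands the electrons on, by 0.58. Within Sed and within Ex rats taken alone, 22 of the 25 genes had the higher mean in the upper rats of both. Over all 10850 genes, 3902 had it in both. Pdk4, which holds back pyruvate oxidation, was among the others of the 25, at 1.71 in Sed and -0.54 in Ex rats.

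The same held for the mitochondrial lists, with narrow differences. All 18 tricarboxylic acid cycle genes had the higher mean (median 0.23) under TMM, and 17 under median-of-ratios scaling, where Idh3a, at 0.012 under TMM, was the gene nearest to 0. All 71 nuclear genes of the respiratory chain and ATP synthase had the higher mean, with a median of 0.28 and a lowest value of 0.15. Cox7a1, the muscle form of a cytochrome oxidase subunit, stood apart at 1.61, with low levels of 1.62 to 6.72 CPM in the upper and 0.434 to 3.21 CPM in the lower set. Cox6a1, the form of subunit VIa that is not limited to heart and muscle, was the only one of the 71 without overlap, beside 0.571% of all genes. It is the same gene already counted above, and was at 28.2 to 33.5 CPM in the upper and 18.7 to 26.5 CPM in the lower set. All 13 genes of the mitochondrial genome had the higher mean too (median 0.38), from 0.21 to 0.79, with Mt-co1, a catalytic subunit of cytochrome oxidase, at 0.48.

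Regulators of fibre type and oxidative metabolism showed no common direction, with 15 of 27 measured genes higher and 12 lower, a median of 0.088 (0.015 without Sed replicate 5 and 0.14 without Ex replicate 6) and none without overlap. Lmcd1, a LIM protein that promotes calcineurin signalling, had the widest difference at 1.54, with 73.8 to 155.4 CPM in the upper and 14.6 to 82.1 CPM in the lower set. Prox1, a homeobox factor that maintains slow fibres, followed at 1.13, with 3.75 to 9.34 CPM and 1.52 to 5.62 CPM. Esrrg, an orphan receptor of oxidative muscle, was at 0.74 and Rcan1, a target and inhibitor of calcineurin, at 0.76. Sox6, which represses slow genes, was at -0.37 and Myod1, the myogenic factor that is higher in fast muscle, at -0.77. Ppargc1a, the coactivator PGC-1 alpha, was at 0.13 and Nfatc1, a calcineurin target, at -0.00069.

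**Figure D3:**
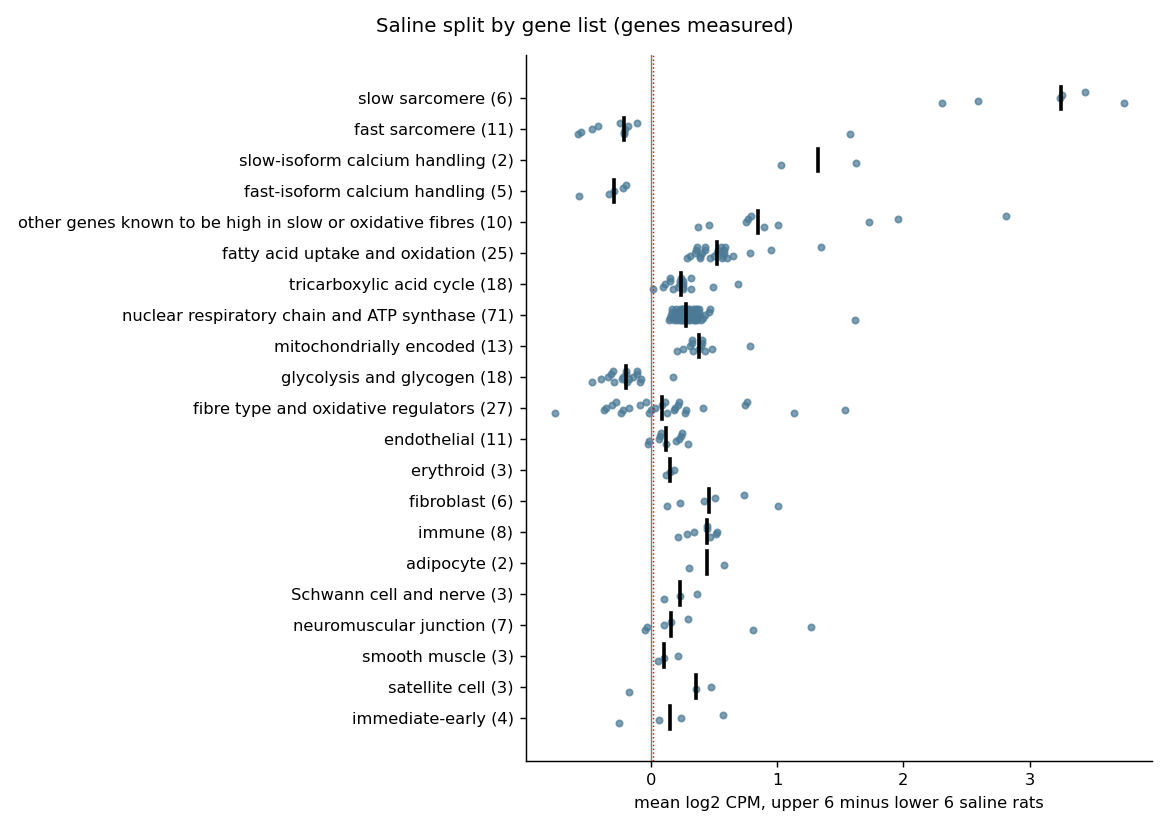
Difference in mean log2 CPM between the upper and the lower 6 saline rats, with a point for each gene, a bar for the median of each list and a dotted line for the median of all 10850 genes (0.013). The slow sarcomere genes lie between 2.31 and 3.75, and Myh2, at 1.58, is the only fast sarcomere gene above 0.

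Over all genes, 62 of 10850 (0.571%) were higher in each upper rat than in each lower rat, and 65 (0.599%) were lower. These calls come from the contrast that the ranking made, and nothing is read from their number. Of the 62 genes, 18 differed by at least 1 on the log2 scale. With overlap allowed, 77 genes differed by at least 1 upward and 6 downward.

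Beside the genes already named, the 10 widest differences upward without overlap belonged to Fzd9, Myh3, Pdlim1 and Gpsm2. Fzd9, a receptor for Wnt ligands, ranged from 6.38 to 16.7 CPM in the upper and from 0.482 to 6.23 CPM in the lower set, with a difference of 2.64. Myh3, the embryonic myosin heavy chain, differed by 2.10, with 194.8 to 409.8 CPM and 15.4 to 152.9 CPM. Pdlim1, a cytoskeletal adaptor of the actin filaments, and Gpsm2, a regulator of heterotrimeric G proteins, differed by 1.37 and 1.35.

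The 10 widest differences downward without overlap were all below 1 in size. Maf, a basic leucine zipper factor, had the widest, at -0.75, with 12.7 to 29.6 CPM (median 26.2) in the upper and 30.9 to 50.9 CPM (median 37.7) in the lower set. Zc4h2, a zinc finger protein, was at -0.60, Homer1, a scaffold that binds ryanodine receptors and TRP channels, at -0.49 and Dusp3, a dual-specificity phosphatase, at -0.44. Ttc28 was at -0.45 and had a narrow upper set, from 25.1 to 27.1 CPM, against 30.2 to 42.3 CPM. The others were AABR07009105.1 (a gene without a name in the table) at -0.66, Prrg1 at -0.49, Myh4 at -0.47, C2cd2 at -0.45 and Tmcc1 at -0.44.

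Markers of other cell types were compared in the same way. Summed over 6 fibroblast genes, the upper set lay between 398.9 and 4962 CPM (median 2420) and the lower set between 720.5 and 2071 CPM (median 1597). The 8 immune genes summed to 18.3 to 137.4 CPM (median 102.8) and 32.5 to 94.3 CPM (median 48.9), and the 11 endothelial genes to 425.4 to 705.0 CPM (median 600.0) and 442.6 to 640.6 CPM (median 507.8). For the 3 erythroid genes the sums were 92.2 to 178.8 CPM (median 115.8) and 49.9 to 209.6 CPM (median 122.8), and for the 2 measured adipocyte genes 108.3 to 179.5 CPM (median 140.6) and 78.5 to 131.4 CPM (median 118.6). All 6 fibroblast genes and all 8 immune genes had the higher mean in the upper set, with medians of 0.46 and 0.44, and each gene overlapped. Leaving out 1 rat moved these medians to 0.26 (without Ex replicate 6) and 0.80 (without Sed replicate 4) for fibroblast genes, and to 0.24 (without Sed replicate 1) and 0.79 (without Sed replicate 4) for immune genes. Without Ex replicate 6, 4 of the 6 and 7 of the 8 genes had the higher mean. The 3 genes each of Schwann cells and of smooth muscle had medians of 0.23 and 0.10, the 3 of satellite cells 0.35 and the 4 immediate-early genes 0.15. The medians ranged from 0.076 (without Sed replicate 6) to 0.64 (without Ex replicate 1) for Schwann cells, from -0.027 (without Sed replicate 5) to 0.40 (without Ex replicate 1) for smooth muscle and from -0.11 (without Sed replicate 2) to 0.42 (without Ex replicate 5) for immediate-early genes. With the highest 8 against the lowest 4 rats, the Schwann cell median was -0.085 and the immediate-early median 0.82. No gene of these lists was at 0 in any rat. Their part in the differences of the muscle genes was not tested.

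Genes of the neuromuscular junction had a median difference of 0.16, which ranged from 0.025 (without Sed replicate 3) to 0.39 (without Sed replicate 5) when 1 rat was left out. Chrna1 and Chrnd, subunits of the muscle acetylcholine receptor, lay between 7.57 and 12.1 CPM and between 7.39 and 14.9 CPM in the upper set. In the lower set Sed replicate 5 was at 53.9 CPM for Chrna1 and 34.03 CPM for Chrnd, whereas the next rats were at 10.2 and 4.79 CPM.

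Training was balanced between the sets, and it was tested in its own contrast. In the edgeR model of all 4 groups, 0 of 10850 genes (0%) had an adjusted p-value under 0.05 for Sed vs. Ex, with a smallest edgeR adjusted p of 0.999884. At an unadjusted p under 0.05, 118 genes were found, and DESeq2 also gave 0 genes. Tnni1 had means of 210.3 CPM in Sed and 452.2 CPM in Ex rats, with a Log2FC of 1.10 and a standard error of 1.23.

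The monocrotaline rats, which the ranking had not used, served for a test of the same relation. Their Tnnc1 was at 1111 CPM in CC-Sed replicate 5, 1003 in CC-Ex replicate 3, 926.9 in CC-Sed replicate 1, 871.6 in CC-Sed replicate 4, 650.2 in CC-Ex replicate 1 and 553.8 in CC-Sed replicate 6. It was at 549.7 CPM in CC-Ex replicate 2, 426.0 in CC-Ex replicate 6, 112.4 in CC-Sed replicate 3, 9.31 in CC-Sed replicate 2, 0.504 in CC-Ex replicate 4 and 0.375 in CC-Ex replicate 5. Of these 12 rats, 8 lay above 400 CPM and the last pair far below the others. For each gene, the slope on log2 CPM of Tnnc1 was fitted with edgeR in a model with training as a further term, so that a slope of 1 is a doubling of the gene for each doubling of Tnnc1.

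A positive slope was called for 160 of 10850 genes (1.47%) and a negative slope for 28 (0.258%) at an edgeR adjusted p under 0.05. DESeq2 called 5.64% of all genes positive and 4.16% negative, and limma-voom 1.6% and 0.212%. On simulated counts, DESeq2 made 37 false calls and edgeR 12. At an unadjusted p under 0.05, edgeR found 2294 genes (21.1%). With the upper 6 against the lower 6 of these rats as a factor in place of the slope, edgeR called 0 genes, with a smallest adjusted p of 0.113, 1507 genes at an unadjusted p under 0.05 and 393 genes called by DESeq2. Of the 62 genes that were higher in the upper saline set without overlap, 19 were among the 160, which is 30.6% of the 62 and 11.9% of the 160, and 61 of the 62 slopes were above 0. Of the 65 genes that were lower, 1 was among the 28, Mfsd8, which encodes a lysosomal membrane protein (called in 2 of 12 leave-one-out fits), and 63 of the 65 slopes were below 0. No gene was called in opposite directions, and over all 10850 genes 5091 slopes were above 0. Both contrasts rest on the same ranking gene but on different rats. Whether slopes differ between saline and monocrotaline rats was not tested.

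**Figure D4:**
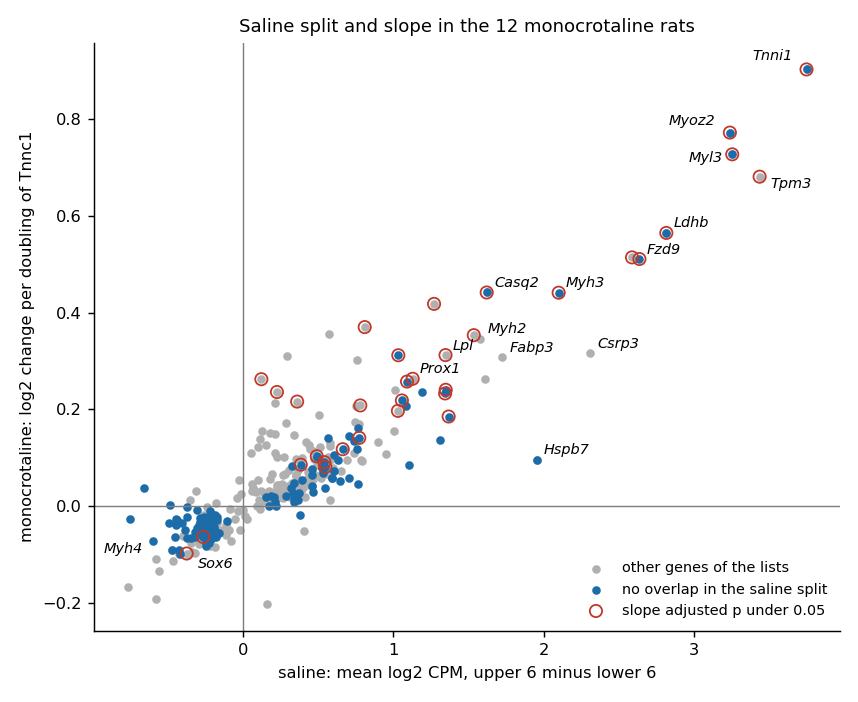
Difference between the saline sets in mean log2 CPM against the slope on log2 CPM of Tnnc1 in the 12 monocrotaline rats, for the genes of the lists (grey) and the genes without overlap in the saline split (blue), with circles around slopes with an edgeR adjusted p under 0.05. Tnni1, at 3.75 and 0.90, is the farthest point, and Hspb7, at 1.95 and 0.096, lies well below genes of a like saline difference.

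Among the slow sarcomere genes, 5 of 6 slopes were called positive in monocrotaline rats, beside 1.47% of all genes. Tnni1 had the smallest p of all genes, with a slope of 0.90 (standard error 0.035, edgeR adjusted p = 7.37e-08) and levels from 0.915 to 1293 CPM. The next were Myoz2, with a slope of 0.77 (edgeR adjusted p = 5.05e-05), and Myl3, with 0.73 (edgeR adjusted p = 0.000122). Tpm3 was at 0.68 (edgeR adjusted p = 0.000161) and Myh7b at 0.51 (edgeR adjusted p = 0.00136). Csrp3, with a slope of 0.32, missed the threshold (edgeR adjusted p = 0.0647) but passed it without CC-Ex replicate 5, at 0.49 (edgeR adjusted p = 0.0242), and it was called by DESeq2 and by limma-voom in all 12 rats. Both slow calcium genes were called, Casq2 with 0.44 (edgeR adjusted p = 5.05e-05) and Atp2a2 with 0.20 (edgeR adjusted p = 0.0093).

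No fast sarcomere gene, fast calcium gene or glycolytic gene was called by edgeR in monocrotaline rats, although the slopes were below 0 for 10 of 11, 5 of 5 and 17 of 18 of them. At an unadjusted p under 0.05, edgeR found 5, 2 and 2 of them, beside 21.1% of all genes. Over all 10850 genes, 5091 slopes were above 0. DESeq2 called Myh2 positive and Myh4 and Ryr1 negative, and limma-voom called Myh2 positive, whereas neither called a glycolytic gene. Myh4 had a slope of -0.090 (standard error 0.034, edgeR adjusted p = 0.173) and Pvalb of -0.19 (standard error 0.075, edgeR adjusted p = 0.18). Myh4 lay between 42052 and 130291 CPM, with the 4 rats lowest in Tnnc1 at 110877 CPM or more. Myh2 had a positive slope of 0.35, which did not pass the test (edgeR adjusted p = 0.0566), and CC-Sed replicate 1 was at 1285 CPM despite its high Tnnc1. Without CC-Ex replicate 5 its edgeR adjusted p was 0.16.

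In the oxidative lists, few genes passed the adjusted threshold. Of all genes, edgeR called 1.47% positive, DESeq2 5.64% and limma-voom 1.6%. At an unadjusted p under 0.05, edgeR found 21.1% of all genes. It found 7 of the 10 genes high in slow or oxidative fibres and 19 of the 25 fatty acid genes at that level. Ldhb was the only one called of the 10 genes high in slow or oxidative fibres, with a slope of 0.56 (standard error 0.043, edgeR adjusted p = 5.05e-05). Fabp3 (0.31, edgeR adjusted p = 0.0572) and Mb (0.13, edgeR adjusted p = 0.0579) missed the threshold, as did Car3, the carbonic anhydrase of slow fibres (0.21, edgeR adjusted p = 0.0688). All 3 were called by DESeq2 and by limma-voom, which called 6 and 4 of the 10 genes. Of 25 genes of fatty acid uptake and oxidation, 24 slopes were above 0 and 2 were called (7 by DESeq2 and 3 by limma-voom), Lpl with 0.31 (edgeR adjusted p = 0.0013) and Slc27a1, a fatty acid transporter, with 0.21 (edgeR adjusted p = 0.0312). Over all 10850 genes, 5091 slopes were above 0. Slc27a1 was called in 7 of 12 leave-one-out fits, and not without CC-Ex replicate 3 (edgeR adjusted p = 0.0936), among others. None of the 18 tricarboxylic acid cycle, 71 respiratory chain or 13 mitochondrially encoded genes was called by edgeR or limma-voom, and DESeq2 called Idh2, a mitochondrial isocitrate dehydrogenase, and Cox7a1. At an unadjusted p under 0.05, edgeR gave 2, 1 and 1 of them, each a smaller share than the 21.1% of all genes, with median slopes of 0.023, 0.035 and 0.040.

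Of the 27 regulators, Lmcd1 (slope 0.35, edgeR adjusted p = 0.00678) and Prox1 (slope 0.26, edgeR adjusted p = 0.0093) were called positive. Sox6 was called negative (slope -0.098, edgeR adjusted p = 0.0371). Of all genes, edgeR called 1.47% positive and 0.258% negative. Lmcd1 and Prox1 were called in 12 of 12 leave-one-out fits, whereas Sox6 was called in 4 and reached an edgeR adjusted p of 0.147 without CC-Ex replicate 5. The lowest Sox6 among the monocrotaline rats was 13.1 CPM in CC-Ex replicate 1, and the highest 47.2 CPM in CC-Ex replicate 5.

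The 10 smallest p-values for a positive slope belonged to Tnni1, Casq2, Ldhb, Myoz2, Myl3, Tpm3, Fgf1, Npr2, Fzd9 and Lpl, of which 6 had not overlapped in the saline split. Fgf1, a fibroblast growth factor, had a slope of 0.40 (edgeR adjusted p = 0.000986) and differed by 1.35 between the saline sets. Npr2, the receptor for C-type natriuretic peptide, had a slope of 0.17 (edgeR adjusted p = 0.000986) and differed by 0.70. All 10 were called in 12 of 12 leave-one-out fits. Myh3 (slope 0.44, edgeR adjusted p = 0.0118) lost it without CC-Ex replicate 5 (edgeR adjusted p = 0.0547), and Pdlim1 (slope 0.19, edgeR adjusted p = 0.0168) without CC-Ex replicate 3 (edgeR adjusted p = 0.0545). Gpsm2 (slope 0.24, edgeR adjusted p = 0.0447) was called in 3 of 12, and not without CC-Ex replicate 3 (edgeR adjusted p = 0.136).

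Other shared genes were lower in level. Trpc1, a cation channel of the membrane, was at 2.05 to 4.35 CPM in the upper and 0.82 to 1.79 CPM in the lower saline set, and had a slope of 0.26 in monocrotaline rats (edgeR adjusted p = 0.00272). P3h2, a prolyl hydroxylase of collagen, was at 2.41 to 4.25 CPM and 0.881 to 2.31 CPM, with a slope of 0.31 (edgeR adjusted p = 0.00572). Cryl1, an enzyme of sugar metabolism, had a slope of 0.22 and a saline difference of 1.06. Pkd2, a calcium-permeable channel, had a slope of 0.10 and a saline difference of 0.49, and Mast2, a kinase, of 0.086 and 0.38. The rest of the 19 were Ift81, Usp11, Vamp8, Tmem250 and AABR07007032.1 (without a name in the table), with slopes from 0.081 to 0.23. Vamp8 and Ift81 were called in 1 and 2 of the 12 leave-one-out fits.

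The 10 smallest p-values for a negative slope belonged to Rabgef1, Tspan5, Pgm2l1, Cc2d1b, Rmnd5a, Sec61a2, Carm1, Tspan8, Ddhd2 and Vps45. Their slopes were small, from -0.16 for Tspan8, a tetraspanin, to -0.058 for Cc2d1b. Each also had the lower mean in the upper saline set, by -0.51 for Tspan5 to -0.16 for Carm1, an arginine methyltransferase, and each overlapped there. Rabgef1, an exchange factor for the endosomal GTPase Rab5, had a slope of -0.096 (standard error 0.017, edgeR adjusted p = 0.0155). Without CC-Ex replicate 5 none of the 10 was called, with edgeR adjusted p from 0.0716 for Rabgef1 to 0.178 for Tspan8, and without CC-Ex replicate 3 only Rabgef1 was. Rabgef1 was called in 11 of 12 leave-one-out fits, and Tspan8 and Vps45 in 6.

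Among the 10 widest upward saline differences without overlap, Hspb7 was the gene whose slope did not pass the test. Its slope was 0.096 (standard error 0.089, edgeR adjusted p = 0.537). Its levels in monocrotaline rats were 741.2 CPM in CC-Ex replicate 5, the rat with the least Tnnc1, and 50.02 CPM in CC-Ex replicate 4, the next. In the other 10 rats it ranged from 60.4 CPM in CC-Sed replicate 2 to 1657 CPM in CC-Sed replicate 6. Without CC-Ex replicate 5 the slope was 0.39 and passed the test (edgeR adjusted p = 0.0363), so that 1 rat decided this call.

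**Figure D5:**
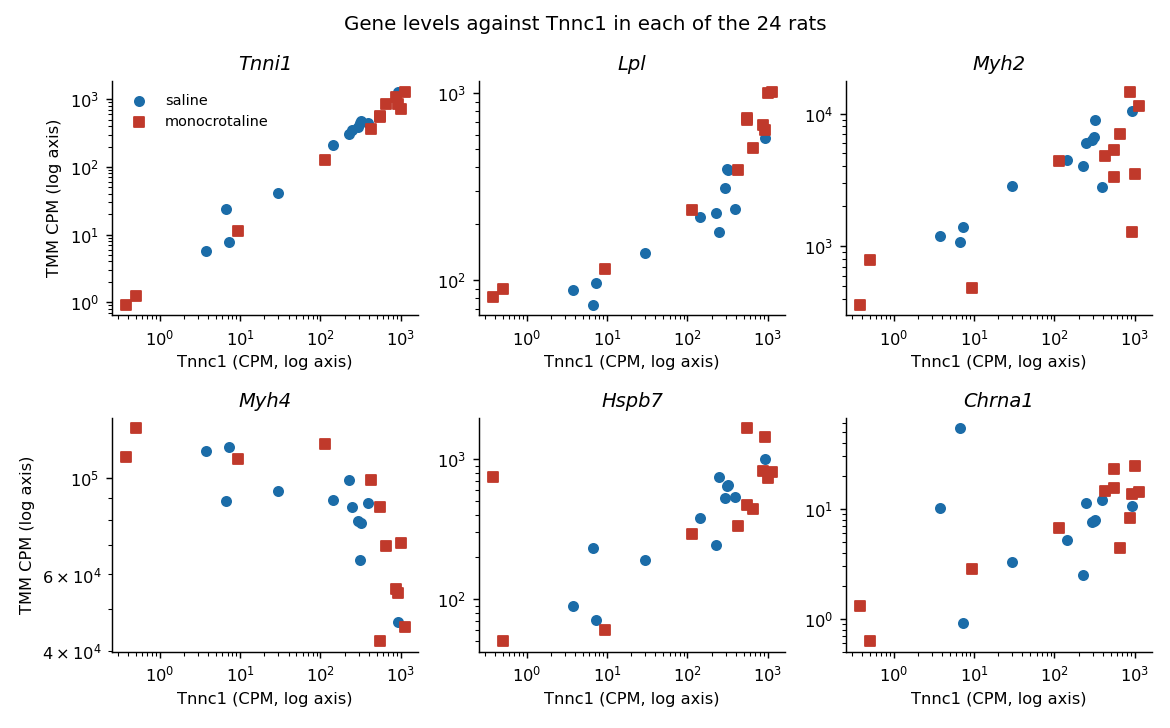
CPM of 6 genes against CPM of Tnnc1 in each of the 24 rats, on log axes, with saline rats as blue circles and monocrotaline rats as red squares. Slopes of Tnni1 (0.90) and Lpl (0.31) were called in monocrotaline rats and that of Myh4 (-0.090) was not, and single rats stand apart for Hspb7 (CC-Ex replicate 5 at 741.2 CPM) and for Chrna1 (Sed replicate 5 at 53.9 CPM).

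Among markers of other cell types, slopes were called for Col1a1 and Col1a2, the chains of type I collagen made by fibroblasts (0.26 and 0.24, edgeR adjusted p = 0.0242 and 0.0185), and for S100b of Schwann cells (0.22, edgeR adjusted p = 0.0155). Chrna1 (0.37, edgeR adjusted p = 0.011) and Chrnd (0.42, edgeR adjusted p = 0.0155) of the neuromuscular junction were called as well, beside 1.47% of all genes. In the saline split the same genes differed by 0.12 and 0.23 for the collagens, 0.36 for S100b, and 0.81 and 1.27 for the receptor subunits, all with overlap. Without CC-Ex replicate 5, Col1a1, Col1a2 and S100b were not called (edgeR adjusted p = 0.0994, 0.0845 and 0.0716), and without CC-Ex replicate 3 Col1a1, Col1a2 and Chrnd were not (edgeR adjusted p = 0.0685, 0.0513 and 0.0508). None of the endothelial, erythroid, immune, adipocyte, smooth muscle and satellite cell genes was called by edgeR or limma-voom. DESeq2 called 5 of 6 fibroblast, 3 of 8 immune, 3 of 3 smooth muscle and 1 of 2 adipocyte genes, all positive, beside 5.64% of all genes. At an unadjusted p under 0.05, edgeR found 21.1% of all genes. It found 6 of 6 fibroblast, 3 of 3 Schwann cell, 6 of 8 immune and 3 of 3 smooth muscle genes. It also found 4 of 7 neuromuscular junction, 1 of 2 adipocyte and 1 of 3 satellite cell genes. None of 11 endothelial or 3 erythroid genes was found. The part of these cells in the slopes of muscle genes was not tested.

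The count of called slopes rested on single rats. Leaving out 1 monocrotaline rat gave 58 positive and 1 negative slopes without CC-Ex replicate 3, and 445 and 402 without CC-Ex replicate 4. Without both CC-Ex replicate 4 and CC-Ex replicate 5, the rats with the least Tnnc1, 41 positive and 8 negative slopes were called, in a fit added after seeing the data. Tnni1 then had a slope of 0.98 (edgeR adjusted p = 9.79e-05), Myoz2 of 0.85, Myl3 of 0.89, Ldhb of 0.71 and Lpl of 0.44, all still called, while Myh7b, Atp2a2 and Prox1 lost the call (edgeR adjusted p = 0.0595, 0.0635 and 0.0703). Csrp3 and Hspb7 were called in that fit (edgeR adjusted p = 0.0144 and 0.0211). With the replicate number of the labels as a block, 59 positive and 3 negative slopes were called.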

How the data were processed

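Poly-A RNA of the medial gastrocnemius was sequenced from stranded libraries, 1 per rat. According to the paper's methods, the authors trimmed the reads (Trim Galore), quantified them with Salmon on the Ensembl annotation of mRatBN7.2 and summed transcripts to genes with tximport. The deposited values are estimated counts, given as whole numbers for 10851 genes, none below 10, and not scaled for library size. The labels also name DESeq2 1.44.0 among the submitters' tools.

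Groups and replicate numbers came from the labels. Counts were scaled by TMM over 24 rats in R 4.3.3 with edgeR 4.0.16, and log2 CPM had a prior count of 2. The split was described by the difference of mean log2 CPM and by overlap. Slopes on log2 CPM of Tnnc1 (Tnnc1 itself left out) were tested with the edgeR quasi-likelihood F test in the 12 monocrotaline rats, with training as a term, and Sed vs. Ex in a model of the 4 groups over 24 rats. P-values were adjusted by Benjamini-Hochberg over all 10850 genes, and no gene failed the filter on low counts. The standard error was the size of the slope divided by the root of F. The median biological coefficient of variation was 0.245 in the slope model. On simulated counts of 10850 genes for the slope model, edgeR recovered 100 of 100 genes at each of the slopes 0.3 and 0.6, with 12 false calls. DESeq2 and limma-voom recovered the same genes, with 37 and 11 false calls. The simulated level was normally distributed and all genes shared a common dispersion, unlike in the rats. Slopes between 0 and 0.3 in size were not simulated. The median called positive slope in the rats was 0.18, so the recovery of such slopes is not known. Alternatives used DESeq2 1.42.0 and limma 3.58.1.

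The Tnnc1 split and the gene lists were chosen with earlier results of these data known. Genes named were members of the lists, the 10 widest differences without overlap in each direction, and the 10 smallest slope p-values in each direction. The genes shared by both calls, and those of the count of 1, were named after their values were seen. Same-numbered rats did not deviate together on average (mean correlation -0.0093 for Sed and Ex, -0.23 for CC-Sed and CC-Ex). Single correlations ran from -0.23 to 0.22 for Sed and Ex, and from -0.59 to 0.37 for CC-Sed and CC-Ex. Means of such scattered values cannot decide whether the numbers pair rats.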

Additional observations from a re-analysis of the deposited data

Results flagged for a closer look

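A rat was marked when its gap to the nearest of the 6 rats of its set, divided by the range of the set, passed Dixon's limit for 6 samples. Over 99 genes in both sets, 198 groups of 6, 24 values were marked. The limit marks about 1 in 20 groups when values are normally distributed and groups are independent. Here it was applied to CPM of genes that in part follow each other and the ranking, so the number of marks cannot be set against that rate. In the upper set, Ex replicate 4, which had the most Tnnc1, stood above the next rat in 11 genes, Tnni1 (1268 against 469.3 CPM), Myl3 (2623 against 1373 CPM), Myoz2 (508.6 against 289.3 CPM), Tpm3 (1620 against 774.3 CPM), Atp2a2 (4268 against 1991 CPM), Ldhb (378.6 against 194.7 CPM), Fabp3 (751.4 against 397.7 CPM), Pdlim1 (85.4 against 47.6 CPM), Gpsm2 (6.1 against 2.45 CPM), Trpc1 (4.35 against 2.48 CPM) and Pkd2 (26.4 against 22.2 CPM). Sed replicate 6 of the upper set was the highest for Csrp3 (523.3 against 281.2 CPM) and Carm1 (162.2 against 138.7 CPM). Ex replicate 5 of the lower set was the highest for Fabp3 (291.5 against 150.3 CPM) and Gpsm2 (1.17 against 0.81 CPM). Sed replicate 5 of the lower set was the lowest for Prrg1 (13.6 against 17.6 CPM). Sed replicate 3 of the lower set was the highest for C2cd2 (43.1 against 36.8 CPM) and Rmnd5a (53.7 against 45.6 CPM). Sed replicate 5 of the lower set was the highest for Chrna1 (53.9 against 10.2 CPM), Chrnd (34 against 4.79 CPM) and Sec61a2 (40.7 against 28 CPM). Ex replicate 1 of the lower set was the highest for Casq1 (4597 against 3777 CPM). Ex replicate 6 of the upper set was the highest for Ddhd2 (12.2 against 9.1 CPM). Ex replicate 6 of the upper set was the lowest for Tfam (38 against 43.7 CPM).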

How the results depend on the processing

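The Tnnc1 split kept its 6 upper rats under each scaling. Its counts of genes higher and lower without overlap, 62 and 65 of 10850, depend on how many rats are compared and on which. A set of fewer rats is free of overlap more easily, so 62 and 65 cannot be set against the counts of smaller sets. They were 541 and 562 for the upper 4 against the lower 4, 1186 and 971 in Sed rats only, 724 and 637 in Ex rats only, and 215 and 167 for the highest 8 against the lowest 4, an alternative chosen after seeing the data. Leaving out 1 rat gave 65 (without Ex replicate 4) to 180 (without Ex replicate 6) higher and 74 (without Sed replicate 3) to 157 (without Ex replicate 6) lower genes. The sets otherwise stayed fixed, so that leaving out a rat could only keep or raise the counts.

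The counts of positive and negative slopes in monocrotaline rats, 160 and 28, moved under more of the alternatives. DESeq2 gave 612 and 451, a model without the training term 280 and 95, and the mean of Tnni1, Tpm3 and Myl3 in place of Tnnc1 244 and 50. The replicate block gave 59 and 3, and Sox6 was among the calls it lost (edgeR adjusted p = 0.178). Without the rats lowest in Tnnc1, a choice made after seeing the data, 41 and 8 were called. Negative slopes were 14 with upper-quartile scaling and 17 among genes of at least 5 CPM. With the upper 6 against the lower 6 rats as a factor, edgeR called 0 and 0 genes, with 1507 at an unadjusted p under 0.05, limma-voom 0 and DESeq2 393. Leaving out 1 rat gave 58 to 445 positive and 1 to 402 negative slopes (without CC-Ex replicate 3 and without CC-Ex replicate 4). The cause of these shifts was not tested. No gene named with a slope changed its sign. Sed vs. Ex gave 0 genes under each alternative, the replicate block included.

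Each group holds 6 rats, and the parts of the depth and of the spread between rats in the precision were not tested. The Tnnc1 level used for the slopes rested on 21 counts in CC-Ex replicate 4 and 16 in CC-Ex replicate 5. Genes with a count below 10 in any rat are not analysed here, which leaves 6 of the 11 listed slow sarcomere genes.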
